A study of Sus scrofa with 15 samples.

Results

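The genes of mitochondrial fusion, fission and mitophagy were examined in pig oocytes before, after and without completion of nuclear maturation. They were listed by name under the known roles of their proteins. The list held 10 genes. These were the fusion genes MFN1, MFN2 and OPA1, the OPA1 protease OMA1, the fission genes DNM1L, FIS1, MFF and MIEF1, and the mitophagy genes PINK1 and FUNDC1. Of the 10, 9 were found in the data and passed the filter on low counts, among 13217 genes tested. MIEF1, which encodes a receptor for the fission GTPase, had no gene identifier in the name table used and was not analysed here.

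Poly(A) RNA of pooled oocytes was sequenced in 15 libraries, 5 for each of 3 groups of sow oocytes, with ovaries taken at an abattoir. GV oocytes, at the germinal vesicle stage, were stripped of their cumulus cells and collected without culture. MII oocytes had extruded a polar body after 44 h of in vitro maturation (IVM), and the 'damaged' oocytes had been through the same 44 h of IVM without a visible polar body. Both cultured groups therefore differed from GV in culture as well as in stage, and these cannot be told apart in comparisons with GV. Per the study's methods, the IVM medium held gonadotrophins, EGF, insulin, cysteamine and follicular fluid. These additions are part of the difference in culture from GV, and MII and 'damaged' oocytes shared them. No genotype separated the groups. The study's methods describe independent collections that each gave a pool for every group, without saying which libraries share a collection. Because whole pools were sequenced, fewer cells with a transcript and less transcript per cell cannot be told apart. Only poly(A) RNA was sequenced, so a change in poly(A) tail and a change in transcript number cannot be told apart either, and tail length was not tested.

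Mitochondria are reshaped by a balance of fusion and division. Mitofusins join outer membranes, OPA1 joins inner membranes and shapes cristae, and DNM1L is drawn to the outer membrane by receptors to divide the organelle. Mitophagy, the removal of whole mitochondria by autophagy, is started by the kinase PINK1 on depolarised mitochondria or by receptors such as FUNDC1 that bind the autophagosome protein LC3. The mammalian egg passes its mitochondria to the embryo, and its transcripts during maturation are stored molecules that are translated or degraded while the genome is largely silent.

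GV replicate 3 had the lowest depth, with 6.40 M estimated counts, and the other 14 libraries held 11.96 M to 23.6 M. It was left out of the tests, as the study had done, so n was 4 for GV and 5 for each cultured group. Of 10 oocyte markers, 9 could be measured, and all 9 exceeded 1 TPM, the length-normalised unit of transcript abundance, in at least 1 library of each group. Summed over the list they reached 15587 to 18390 TPM in GV, 10724 to 13026 in MII and 10556 to 12852 in 'damaged' oocytes. Of the 9, OOSP2 alone was higher in MII, at 2176 to 5543 TPM in GV and 6829 to 9343 in MII. All the others lay lower in MII than in every GV library. ZP3 was at 2969 to 5140 TPM in GV and 60.2 to 139 in MII, and GDF9 at 1024 to 1227 and 67.3 to 127. The 9 measurable of 14 cumulus and granulosa markers summed to 2.30 to 4.38 TPM in GV, 2.71 to 5.51 in MII and 1.56 to 3.26 in 'damaged' oocytes. GATM was at 0.553 to 1.14 TPM in GV and 1.92 to 3.36 in MII, and TNFAIP6 reached 2.12 TPM in a GV library and 2.62 in an MII library, so markers of the surrounding cells were at a few TPM or less in all groups. Of 2 theca markers only INSL3 could be measured, at no more than 0.427 TPM in any library. The 3 measurable of 4 blood markers summed to at most 1.05 TPM.

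The scaling between libraries sets the sign of small changes in these data. CPM values below, which are counts scaled to a common library size, use the effective size given by the trimmed mean of M values (TMM), whose factors were 1.35 to 1.73 in GV, 0.794 to 0.880 in MII and 0.826 to 0.922 in 'damaged' libraries. Across all genes tested, the median log2 change from GV was −0.17 in MII and −0.14 in 'damaged' oocytes on this scale. On plain library sizes these medians were −1.09 and −1.01. Both scales are relative, so a rise or fall below is not a measure of the amount of transcript per oocyte. A gene between the scales, such as MFN1, is higher in cultured oocytes on one and not on the other, and such cases are named as they occur.

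Levels of different genes were compared in TPM, which is per transcript length. In GV oocytes OMA1 was the highest member at 330 ± 77.0 TPM (SD, n = 4), followed by MFF at 155 ± 14.3. OPA1, at 89.2 ± 22.9 TPM, and FUNDC1, at 85.7 ± 9.03, overlapped in range. DNM1L, MFN1, FIS1 and PINK1 followed within 29.8 to 41.9 TPM on average, each overlapping its neighbour. MFN2 was the lowest, at 1.93 ± 0.566 TPM. MFN1 was thus the prevailing mitofusin transcript, with a median of 18.6 times the TPM of MFN2 within a GV library.

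The order changed after culture at its lower end. OMA1 stayed highest, at 652 ± 149 TPM in MII and 666 ± 125 in 'damaged' oocytes (SD, n = 5 each), and MFF was second, overlapping FUNDC1 in MII. PINK1 and FIS1, which had overlapped MFN1 in GV, stood apart below it in both cultured groups. PINK1 averaged 2.45 ± 0.803 TPM in MII and 2.83 ± 1.76 in 'damaged' oocytes, and FIS1 1.62 ± 0.699 and 1.65 ± 0.346, so these genes overlapped each other. MFN2 was again lowest, at 0.636 ± 0.174 and 0.664 ± 0.231 TPM.

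**Figure D1:**
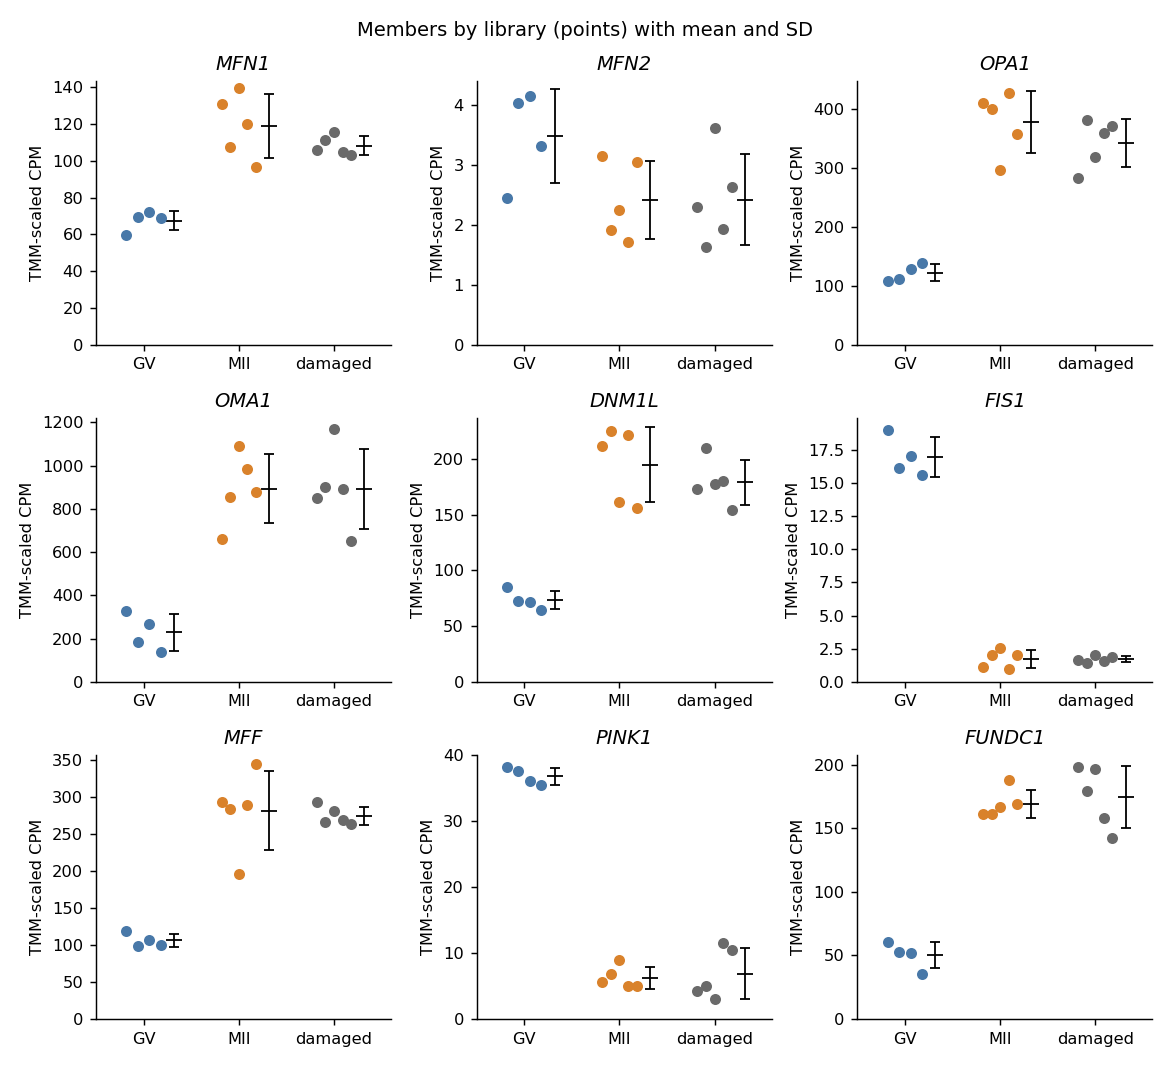
TMM-scaled CPM of the 9 measured members (vertical axis, from 0) in GV, MII and 'damaged' oocytes, with 1 point per library and the mean and SD in black, n = 4, 5 and 5. FIS1 and PINK1 lie far below GV in all cultured libraries, OMA1, OPA1, DNM1L, MFF and FUNDC1 lie above, and the cultured groups overlap in every panel; MFN1 is higher than GV on this scale but not on library sizes.

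The comparison of MII with GV asked how these transcripts stood after maturation. FIS1 and PINK1 were the members that fell on both scalings at the threshold used, by 10.3-fold and 6.08-fold on TMM scaling. OMA1, FUNDC1, OPA1, DNM1L and MFF rose by 2.62-fold to 4.10-fold, and MFN1 by 1.75-fold on TMM scaling, whereas plain library sizes gave MFN1 a log2 value of −0.11. On library sizes the folds of FIS1 and PINK1 were larger, 19.6 and 11.5, and those of the 5 rising members smaller, 2.17 for OMA1, 1.83 for FUNDC1, 1.64 for OPA1, 1.40 for DNM1L and 1.39 for MFF. MFN2 did not pass the test on TMM scaling, but on library sizes it passed and was lower by 2.75-fold. In all, 6 of 9 members were higher and 2 lower at a false discovery rate (FDR) under 0.01 in limma-voom, which called 28.2% of all genes higher and 34.2% lower. The median log2 change of the 9 was 1.39, beside −0.17 for all genes. By range, 6 members lay wholly above GV and 2 wholly below, as did 27.0% and 33.0% of all genes.

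FIS1 encodes a small protein anchored in the outer membrane at which fission factors gather. The gene (ENSSSCG00000038938) lies on chromosome 3 from 8938250 to 8942102 in Sscrofa11.1. Its CPM was 19.0, 16.1, 17.1 and 15.6 in GV replicates 1, 2, 4 and 5. In MII replicates 1 to 5 it was 1.10, 2.02, 2.54, 0.991 and 1.99, which are counts of only 12 to 33 reads. The highest MII library lay far below the lowest GV library, and no values overlapped. The log2 fold change was −3.37 (95% interval −3.85 to −2.88), with an FDR of 2.06e-10, and 6.58% of genes had a lower value.

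PINK1 (ENSSSCG00000003506, chromosome 6, 78863195 to 78884663) encodes the kinase that marks depolarised mitochondria. It stood at 38.3, 37.6, 36.1 and 35.5 CPM in the GV libraries. MII values were 5.62, 6.76, 8.92, 4.93 and 4.98 CPM, all well under every GV library. The log2 fold change of −2.60 (−3.18 to −2.03) had an FDR of 6.2e-08. FUNDC1 (ENSSSCG00000012258, chromosome X, 39726194 to 39737663), the receptor that recruits LC3 in hypoxia, went the other way. It measured 60.3, 52.5, 51.7 and 35.7 CPM in GV and 161, 161, 167, 188 and 169 CPM in MII, again without overlap. Its log2 fold change was 1.79 (1.47 to 2.10), with an FDR of 3.25e-09. The mitophagy members thus moved in opposite directions on either scaling.

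OMA1 (ENSSSCG00000003831, chromosome 6, 153882398 to 153950460) encodes the inner membrane protease that cleaves OPA1 under stress. GV libraries spread widely, at 326, 182, 269 and 136 CPM, and MII libraries held 662, 855, 1093, 983 and 877 CPM. The groups did not overlap in spite of that spread. The log2 fold change was 2.03 (1.58 to 2.49), with an FDR of 7.04e-08. OPA1 itself (ENSSSCG00000011822, chromosome 13, 130624771 to 130718345) ranged from 109 to 139 CPM in GV and from 296 to 427 in MII, a log2 fold change of 1.63 with an FDR of 3.24e-09. Protease and substrate transcripts therefore both rose relative to other transcripts, by 1.12 and 0.72 on the log2 scale with library sizes.

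The mitofusins differed from each other in level and change. MFN1 (ENSSSCG00000039285, chromosome 13, 117404637 to 117441750) measured 59.8, 69.2, 72.2 and 68.8 CPM in GV and 131, 108, 139, 120 and 96.7 CPM in MII. These groups did not overlap on TMM scaling, with a log2 fold change of 0.81 (0.54 to 1.07) and an FDR of 1.3e-05, but on library sizes they overlapped and the value was −0.11 (FDR 0.498). MFN2 (ENSSSCG00000003434, chromosome 6, 72026512 to 72056439) was at 2.45, 4.04, 4.15 and 3.31 CPM in GV and at 3.15, 1.92, 2.26, 1.71 and 3.06 CPM in MII. These ranges overlapped on counts of 25 to 87 reads per library, whereas on library sizes MII lay wholly below GV. The log2 fold change of −0.55 (−1.10 to 0.00) had an FDR of 0.0681 on TMM scaling and was −1.46 with an FDR of 0.000159 on library sizes. With sample quality weights MFN2 passed as well, at −0.80 with an FDR of 0.00486.

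DNM1L (ENSSSCG00000060628, chromosome 5, 41571054 to 41636058), the GTPase that constricts the organelle, ranged from 64.8 to 84.7 CPM in GV and from 156 to 225 in MII. MFF (ENSSSCG00000031572, chromosome 15, 128768441 to 128799355), its main receptor, ranged from 98.4 to 119 CPM in GV and from 196 to 344 in MII. Both rose without overlap, by log2 fold changes of 1.40 (FDR 4.92e-08) and 1.39 (FDR 3.96e-08). On library sizes the rises were smaller, 0.49 (FDR 0.00149) and 0.48 (FDR 0.0023), and the MFF groups overlapped. FIS1 was the measured fission member that fell, while DNM1L and MFF rose.

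Another scaling moves all genes by about the same amount, so values set against the median gene differ little between scalings by construction and are no check on them. Relative to that median, the MII change on TMM scaling was −3.19 for FIS1, −2.43 for PINK1, −0.38 for MFN2 and 0.98 for MFN1. OMA1 was 2.21 above the median gene and FUNDC1 1.96. On library sizes 5 members were higher and 3 lower at an FDR under 0.01, with 10.9% of all genes higher and 57.5% lower. The same counts held for 'damaged' oocytes on library sizes, where 11.2% of all genes were higher and 56.0% lower.

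Under the study's stricter definition of a differentially expressed gene (DEG), an FDR under 0.01 with an absolute log2 fold change over 2, FIS1, PINK1 and OMA1 qualified. Of all genes tested, 4.51% were DEGs in the higher direction and 17.0% in the lower direction. FIS1 and PINK1 were DEGs under all 25 alternative settings and subsets of libraries. OMA1 was not a DEG in 8 of the 25. Its log2 fold change on plain library sizes was 1.12, well under the threshold of 2, although it rose at an FDR of 2.8e-05 there. It also fell short in the fits without GV replicate 2 (1.96), GV replicate 5 (1.81), MII replicate 3 (1.96) or MII replicate 4 (1.99).

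**Figure D2:**
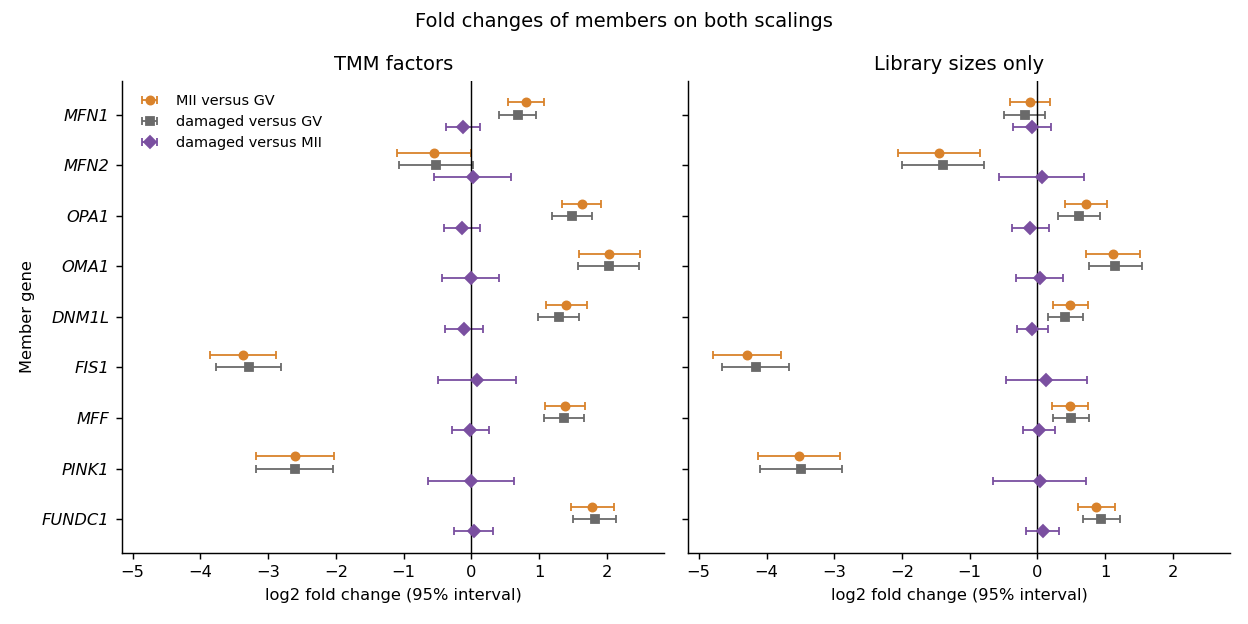
Log2 fold changes of the 9 members (horizontal axis) with 95% intervals in each comparison, on TMM scaling and on plain library sizes. FIS1 and PINK1 lie left of 0 and OMA1, FUNDC1, OPA1, DNM1L and MFF right of it on both scalings against GV, MFN1 changes side between scalings (0.81 and −0.11 in MII), and the intervals between 'damaged' and MII oocytes all span 0.

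The comparison of 'damaged' oocytes with GV asked whether oocytes cultured without a visible polar body differed in the same genes. It uses the same GV libraries as the MII comparison, so these comparisons are not independent. FIS1 fell by 9.74-fold and PINK1 by 6.10-fold. OMA1, FUNDC1, OPA1, MFF and DNM1L rose by 2.44-fold to 4.07-fold, and MFN1 by 1.61-fold on TMM scaling, against −0.19 on the log2 scale with library sizes. On library sizes FIS1 fell by 17.9-fold and PINK1 by 11.2-fold, and the 5 rises ran from 1.33-fold for DNM1L to 2.22-fold for OMA1. Again 6 members were higher and 2 lower at an FDR under 0.01, where 28.0% of all genes were higher and 33.4% lower, and MFN2 did not pass on TMM scaling. The median of the 9 was 1.29, beside −0.14 for all genes. The ranges of 6 members lay above GV and of 2 below, and those of 26.6% and 31.8% of all genes did.

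FIS1 was at 1.65, 1.38, 1.998, 1.60 and 1.91 CPM in 'damaged' replicates 1 to 5, on 18 to 33 reads, all under the lowest GV value of 15.6. Its log2 fold change was −3.28 (−3.76 to −2.80), with an FDR of 2.42e-10. PINK1 varied most, at 4.21, 5.04, 3.002, 11.5 and 10.54 CPM, a coefficient of variation of 56.5%. Replicates 4 and 5 were the high ones, and even they lay under every GV library. The PINK1 log2 fold change was −2.61 (−3.18 to −2.04), with an FDR of 5.96e-08.

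OMA1 measured 850, 901, 1168, 890 and 653 CPM in the 'damaged' libraries, above the GV maximum of 326. FUNDC1 measured 198, 179, 197, 158 and 142 CPM, above the GV maximum of 60.3. Their log2 fold changes were 2.03 (FDR 7.63e-08) and 1.82 (FDR 2.52e-09). Both transcripts were therefore separated from GV in every 'damaged' library. OPA1 ranged from 283 to 381 CPM, DNM1L from 154 to 210 and MFF from 263 to 293, all above GV, with log2 fold changes of 1.49, 1.29 and 1.37. On library sizes these were 0.61, 0.41 and 0.50, and the OPA1 groups overlapped.

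MFN1 held 106, 112, 116, 105 and 103 CPM, above the GV range on TMM scaling, with a log2 fold change of 0.68 (FDR 9e-05), while on library sizes the groups overlapped at −0.19 (FDR 0.243). The MFN1 call was also lost when only genes over 10 CPM were kept, at 0.37 with an FDR of 0.0127. It was lost as well with the 8 libraries that agreed between the deposited tables alone, at 0.65 with an FDR of 0.0131. Only replicates 4 and 5 of GV are among those 8, and the value was close to the 0.68 of the main fit. MFN2 was at 2.30, 1.63, 3.62, 1.94 and 2.64 CPM, within reach of the GV values on TMM scaling but wholly below them on library sizes. Its log2 fold change was −0.53 (FDR 0.0802), −1.39 on library sizes (FDR 0.000247) and −0.81 with quality weights (FDR 0.00604). At an FDR of 0.01, the calls of both mitofusins thus depended on the scaling in both comparisons with GV.

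FIS1, PINK1 and OMA1 were also DEGs in this comparison, in which 4.08% of all genes were DEGs in the higher direction and 16.4% in the lower. The OMA1 call was lost in 7 of 25 alternatives. On plain library sizes its log2 fold change was 1.15, with an FDR of 2.1e-05. It was also under the threshold without GV replicate 2 (1.95), GV replicate 5 (1.80) or 'damaged' replicate 3 (1.92).

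Between 'damaged' and MII oocytes, both cultured for 44 h, no member passed the test. Group means lay close together, at 1.71 ± 0.248 and 1.73 ± 0.662 CPM for FIS1, 6.85 ± 3.87 and 6.24 ± 1.67 for PINK1, and 892 ± 184 and 894 ± 161 for OMA1 (SD, n = 5 each). FUNDC1 averaged 175 ± 24.3 CPM in 'damaged' and 169 ± 11.13 in MII oocytes. The ranges of the 9 members overlapped between the groups. The share of all genes without overlap was 0.174% higher and 0.0984% lower.

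The intervals of these differences show what 5 libraries a group could resolve in a fit that did not pair libraries by replicate number. The log2 difference was −0.01 (−0.29 to 0.26) for MFF, 0.04 (−0.25 to 0.32) for FUNDC1, −0.14 (−0.41 to 0.13) for OPA1 and −0.11 (−0.39 to 0.17) for DNM1L. For MFN1 it was −0.12 (−0.37 to 0.13) and for OMA1 −0.01 (−0.43 to 0.41). The members of low count were known less well, at 0.08 (−0.50 to 0.66) for FIS1, 0.02 (−0.54 to 0.59) for MFN2 and −0.01 (−0.64 to 0.63) for PINK1. A difference in PINK1 of the size of these bounds was therefore not detectable in that fit. Of all genes, 0 passed an FDR of 0.01 in limma-voom, and 194 had an unadjusted p under 0.05, against 251 in DESeq2 and 263 in edgeR. Each of these counts is below a share of 0.05 of the 13217 genes tested, which is the share chance alone would give.

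Ratios of members within a library do not depend on scaling between libraries, and 4 of the ratios chosen could be computed in all 15 libraries. They are given by range, with no test. The ratio of DNM1L to FIS1, the fission GTPase to the outer membrane anchor, had a median of 1.34 in GV, 33.4 in MII and 31.4 in 'damaged' oocytes in TPM. On the log2 scale GV libraries ran from 0.32 to 0.92, MII from 4.25 to 6.07 and 'damaged' from 4.60 to 5.51. GV therefore had about equal transcript of both genes, and no cultured library came near that.

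The mitophagy members shifted further apart. FUNDC1 exceeded PINK1 by a median of 3.02-fold in GV, 62.1-fold in MII and 76.9-fold in 'damaged' oocytes in TPM. The log2 ratio of PINK1 to FUNDC1 was −1.77 to −0.73 in GV, −6.37 to −5.34 in MII and −7.15 to −4.87 in 'damaged' oocytes. Both cultured groups were separate from GV, and the 'damaged' libraries were the more dispersed. Replicates 4 and 5 of that group, the ones with more PINK1, gave −4.90 and −4.87, and the others −6.66, −6.27 and −7.15.

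MFN1 exceeded MFN2 by a median of 18.6-fold in GV, 50.03-fold in MII and 41.1-fold in 'damaged' oocytes. The log2 ratio ran from 3.94 to 4.47 in GV, from 4.82 to 5.97 in MII and from 4.84 to 5.94 in 'damaged' oocytes, so the cultured groups were separate from GV here although neither mitofusin was stable across scalings. In TPM, MFN2 was 1.08 to 2.30 in GV replicates 1, 2, 4 and 5, 0.437 to 0.807 in MII and 0.419 to 0.982 in 'damaged' oocytes. OPA1 to OMA1 was the ratio that overlapped, at −2.64 to −1.03 in GV, −2.94 to −1.75 in MII and −2.94 to −1.87 in 'damaged' oocytes. Leaving out GV replicate 3 from the ratios, a choice made after the data were seen, changed no overlap of groups.

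**Figure D3:**
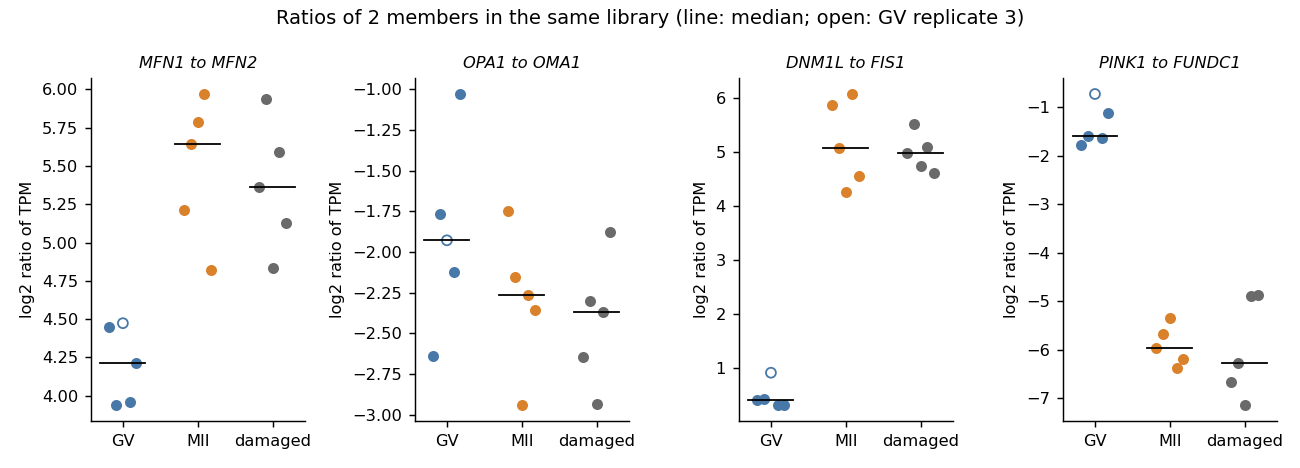
Log2 ratio of TPM of a pair of members in the same library (vertical axis), 1 point per library with a line at the median of 5, and GV replicate 3 open. DNM1L to FIS1 and MFN1 to MFN2 are higher and PINK1 to FUNDC1 lower in every cultured library than in every GV library, whereas OPA1 to OMA1 overlaps.

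Transcript isoforms were compared by the isoform fraction (IF), an isoform's share of its gene's TPM, and its difference between groups (dIF). Of the measured members, 6 had more than 1 transcript with a count, and 14 of their isoforms passed the filters. Usage was called changed where limma diffSplice gave an FDR below 0.01 and the dIF exceeded 0.1 in size. In MII against GV, the 2 isoforms of FUNDC1 were called, and none of the other 5 genes was. These 2 make up the whole gene, so their fractions mirror each other and the calls are 1 result. Of all 16182 isoforms tested, 29.2% were called in that comparison.

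The annotated FUNDC1 transcript of 1234 bases gave most of the gene's TPM. Its fraction was 80.1%, 79.0%, 76.7% and 76.0% in GV replicates 1, 2, 4 and 5. It was 90.4%, 88.8%, 87.7%, 87.9% and 90.7% in MII, above every GV library. The dIF was 0.112 with an FDR of 0.000283. In TPM the 1234-base transcript was 66.9 ± 8.09 in GV and 127 ± 9.50 in MII, and the 3127-base transcript was 18.8 ± 1.65 and 15.6 ± 2.99. The difference in FUNDC1 between the groups was thus carried by the shorter transcript in TPM.

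In 'damaged' oocytes the shorter FUNDC1 transcript gave 88.6%, 86.8%, 86.5%, 90.3% and 89.0%, a dIF of 0.103 with an FDR of 0.000734. Both FUNDC1 isoforms were called, and 29.5% of all isoforms were. This call stood at the dIF threshold. It was lost without GV replicate 4 (0.0991), GV replicate 5 (0.0966) or 'damaged' replicate 4 (0.0981). Restricted to the libraries whose columns agreed between the deposited tables, neither FUNDC1 call held. With these fewer libraries the dIF was 0.124 in MII and 0.122 in 'damaged' oocytes, no smaller than over all 14, and the FDR was 0.0188 and 0.0212. Member isoforms gave no call between 'damaged' and MII oocytes, where 0.0124% of all isoforms were called.

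OPA1 is known for its many splice forms, and 3 of its annotated transcripts were tested. The 7465-base transcript took 8.00% ± 2.15 of the gene in GV, 2.56% ± 0.443 in MII and 2.55% ± 0.499 in 'damaged' oocytes. It passed the fraction filter of 0.05 only through GV. Its dIF of −0.0544 in MII had an FDR of 2.95e-06, so the change was beyond replicate spread but smaller than the dIF threshold. The 2994-base transcript went from 25.2% ± 7.24 to 32.0% ± 2.90 in MII, a dIF of 0.0679 with an FDR of 0.00413, although the GV libraries ran from 17.4% to 31.8% and overlapped the 29.6% to 35.7% of MII. The 3161-base transcript stayed the main one, at 63.9%, 65.3% and 66.6% in GV, MII and 'damaged' oocytes.

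MFF, DNM1L and FIS1 isoforms did not pass an FDR of 0.01. The main MFF transcript gave 73.8% to 84.8% of the gene in GV and 70.4% to 73.7% in MII. For MFN2, the fraction of the 4538-base transcript ran from 0% to nearly 100% within each group. It was 0%, 99.3%, 89.4%, 0% and 64.2% in MII replicates 1 to 5 and 0%, 100%, 87.9%, 0% and 66.5% in 'damaged' replicates 1 to 5. Libraries of the same number in these groups thus had like fractions, whereas GV replicates 1, 2, 4 and 5 had 0%, 100%, 100% and 98.6%. Its dIF of −0.241 in MII had an FDR of 0.221, but without GV replicate 1 it was called at −0.489 with an FDR of 0.00449. Without that library it was also called in 'damaged' oocytes, at −0.486 with an FDR of 0.00543. MFN2 passed the filter on gene TPM only through GV, at a mean of 1.93 TPM against 0.636 in MII and 0.664 in 'damaged' oocytes. Its fractions rest on 21 to 87 reads per library, so these calls are given as values only.

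**Figure D4:**
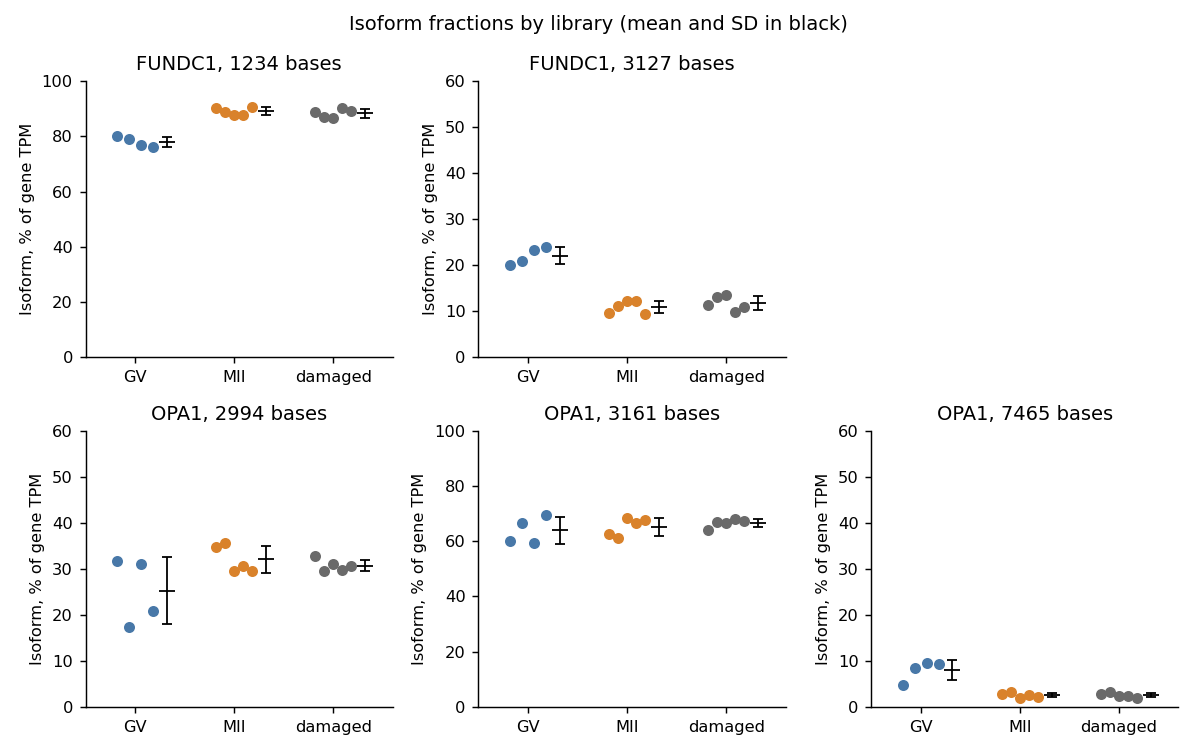
Isoform fraction, as a percent of the gene's TPM (vertical axis), of the FUNDC1 transcripts of 1234 and 3127 bases and of 3 OPA1 transcripts in each library, with the mean and SD in black. The shorter FUNDC1 transcript averages 77.9% in GV, 89.1% in MII and 88.3% in 'damaged' oocytes, and the 7465-base OPA1 transcript falls from 8.00% to 2.56% and 2.55%.

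The other genes of these processes were placed in 4 lists, for fusion and OPA1 processing, fission partners, mitophagy and transport of mitochondria. The lists held 65 genes, of which 62 had an identifier and 58 were tested. YME1L1, INF2 and BNIP3 had no identifier in the name table, and MTFP1, NLRX1, RHOT2 and ARMCX3 did not pass the count filter. In MII against GV 17 of the 58 were higher, 20 were lower and 21 did not pass an FDR of 0.01, where 28.2% of all genes were higher and 34.2% lower. On library sizes the counts were 9, 35 and 14, where 10.9% of all genes were higher and 57.5% lower. In 'damaged' oocytes 17 were higher, 21 lower and 20 neither on TMM scaling, where 28.0% of all genes were higher and 33.4% lower. On library sizes 8 were higher, 36 lower and 14 neither, beside 11.2% and 56.0% of all genes.

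Among 14 genes of fusion and OPA1 processing, 3 were higher and 7 lower in MII, with a median log2 fold change of −0.66. On library sizes 1 was higher and 12 were lower. PARL, the rhomboid protease of the inner membrane that also cleaves PINK1, went from 1209 to 4217 CPM on average. Its log2 fold change was 1.85 on TMM scaling and 0.93 on library sizes. STOML2, an inner membrane scaffold, changed by 0.87 on TMM scaling but by −0.046 on library sizes, with no call there. ROMO1, a small inner membrane protein needed for OPA1 oligomers, fell by 3.72 on the log2 scale, from 94.7 to 7.54 CPM. SPG7, a subunit of the matrix AAA protease, fell by 4.06 (−5.29 to −2.83) from a low 1.46 CPM. It had 126 counts over the GV libraries and 6 over the MII libraries, so it too passed the filter on low counts through GV. The list held falls more often than rises on either scaling, as did all genes, of which 28.2% were higher and 34.2% lower on TMM scaling and 10.9% and 57.5% on library sizes.

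Among 13 fission partners, 4 were higher and 3 lower in MII, with a median of 0.28. On library sizes 0 were higher and 7 lower. The shares of all genes were 28.2% higher and 34.2% lower on TMM scaling, and 10.9% and 57.5% on library sizes. MIEF2, a DNM1L receptor like MIEF1, fell by 4.48 on the log2 scale (−5.93 to −3.03), from 1.85 to 0.116 CPM. It had 157 counts over the GV libraries and 8 over the MII libraries, near the floor. It passed the filter on low counts through GV, so only a fall could be called. AKAP1, which anchors protein kinase A at the outer membrane, fell by 3.62, from 33.3 to 2.66 CPM. MARCHF5, the outer membrane ubiquitin ligase, had a log2 fold change of 0.92 on TMM scaling and 0.00 on library sizes. MTFR1L had 0.84 and −0.076, so neither rise held on library sizes.

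Among 23 mitophagy genes, 7 were higher, 7 lower and 9 neither in MII, with a median of 0.22. On library sizes 6 were higher and 11 lower. All genes stood at 28.2% higher and 34.2% lower on TMM scaling and at 10.9% and 57.5% on library sizes, so the TMM counts were near the background. USP8, a deubiquitinase that acts on parkin, rose from 172 to 767 CPM, a log2 fold change of 2.17. TBK1, the kinase of autophagy receptors, rose by 2.41 from a low 1.68 CPM. On library sizes the rises of USP8 and TBK1 were 1.25 and 1.48. TOMM20, an import receptor of the outer membrane, fell by 3.67, from 102 to 7.73 CPM. MUL1, an outer membrane ubiquitin ligase, had 340 counts over the GV libraries and 3 over the MII libraries, a ratio of 96.5 on effective library sizes with a counting interval of 32.7 to 470.0.

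Among 8 genes of mitochondrial transport, 3 were higher and 3 lower in MII, with a median of −1.06. On library sizes 2 were higher and 5 lower. Among all genes 28.2% were higher and 34.2% lower on TMM scaling, against 10.9% and 57.5% on library sizes. KIF5B, a kinesin heavy chain, rose by 1.62, and RHOT1, the outer membrane GTPase that links mitochondria to motors, by 1.40. On library sizes these rises were 0.71 and 0.49. SNPH, an anchor of mitochondria on microtubules, fell by 4.88, from 17.1 to 0.577 CPM, and TRAK2, a motor adaptor, by 1.49. The TRAK2 call was lost with the 8 agreeing libraries alone, at −0.99 with an FDR of 0.013. Only replicates 4 and 5 of GV are among these, so that fit had less power. In 'damaged' oocytes the respective log2 fold changes were 1.54, 1.25, −3.99 and −1.47. The RHOT1 rise in 'damaged' oocytes did not pass on library sizes, at 0.38 with an FDR of 0.0305.

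**Figure D5:**
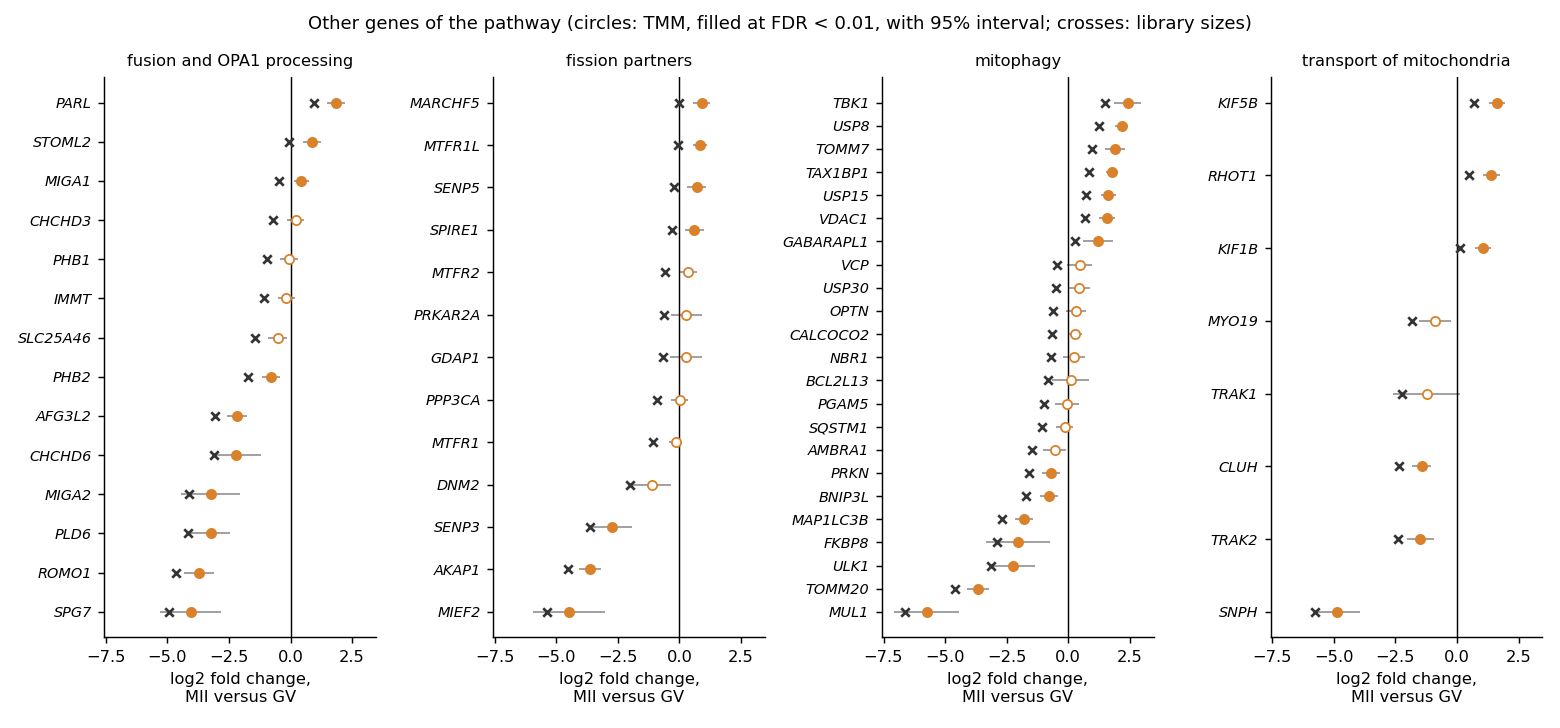
Log2 fold change from GV to MII (horizontal axis) of the 58 tested genes of the 4 lists, as circles with 95% intervals on TMM scaling, filled at an FDR under 0.01, and as crosses on library sizes. Each list holds genes on both sides of 0, from −5.74 for MUL1 to 2.41 for TBK1, and the crosses lie to the left of the circles, past 0 for several genes, STOML2 and MTFR1L among them.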

How the data were processed

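Per the sources used here, the authors filtered reads with AfterQC, quantified them with kallisto 0.43 against Ensembl cDNA of Sscrofa11.1, and summed transcripts to genes with tximport. The deposited transcript files hold estimated counts and TPM for 46369 transcripts in each of 15 libraries. The deposited gene table holds estimated counts. Of its 15 columns, 8 matched their library's transcript totals, and the other 7 carried totals of libraries with other labels and were not used. Gene counts (length-scaled TPM) were therefore computed for all libraries from the transcript files, after each gene's transcripts were found by matching to the 8 columns. Transcripts were found for 18557 of 18954 genes with a count, and computed counts of at least 10 differed from deposited ones by at most 0.000323%. Coordinates and symbols are from RefSeq and the identifier table.

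Genes were filtered by filterByExpr and tested by limma-voom (limma 3.58.1, edgeR 4.0.16, R 4.3.3) with TMM factors in 1 fit over 14 libraries, with Benjamini-Hochberg FDR over all genes. Isoforms with a gene TPM over 1 and a fraction over 0.05 in at least 1 group mean were tested by diffSplice. The test was checked on simulated data in which few genes changed, as many up as down, without pairing of libraries. That check cannot speak to TMM scaling under the uneven changes seen here. The study's methods name no scaling factors, so library sizes are an alternative, as are edgeR, DESeq2 1.42.0, other filters, quality weights, a replicate block and leaving out each library. Libraries of a group differed beyond counting error. All members were named, and from each list up to 2 genes with the largest rise and 2 with the largest fall in MII at an FDR under 0.01. Members and lists were chosen with earlier results of these data known. Intervals of count ratios cover counting error only.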

Additional observations from a re-analysis of the deposited data

Results flagged for a closer look

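Of 45 groups of 4 or 5 values of members and ratios, 1 had a library far from the others. The log2 ratio of DNM1L to FIS1 in GV was 0.918 in GV replicate 3, the library of lowest depth, and the nearest other GV library was at 0.43. The gap was 0.817 of the range, above Dixon's critical value for 5 values. Chance gives such a value in about 1 in 20 groups. MII and 'damaged' libraries all lay at 4.25 or above in this ratio, so the separation from GV is the same with and without that library.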

How the results depend on the processing

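Under the alternatives, 221 of 224 values of members in MII against GV and 219 of 224 in 'damaged' against GV kept their direction and side of an FDR of 0.01. On library sizes the direction turned for MFN1 (−0.11 in MII, −0.19 in 'damaged' oocytes), STOML2 (−0.046 in MII), MTFR1L (−0.076 and −0.061) and MARCHF5 (−0.044 in 'damaged' oocytes). DEGs over all genes were 596 higher and 2250 lower in MII on TMM scaling and 48 and 3881 on library sizes; in 'damaged' oocytes they were 539 and 2161, and 44 and 3666. With only genes over 10 CPM there were 1386 DEGs in MII and 1330 in 'damaged' oocytes, from fewer genes tested. The called FUNDC1 and other member isoforms numbered 2 to 4 in MII and 0 to 4 in 'damaged' oocytes when 1 library was left out, and 0 in both with the 8 libraries that agreed between tables. In these counts the 2 isoforms of FUNDC1, and those of MFN2, mirror each other, so each pair is 1 result. Libraries with the same number deviated together in part. Correlations of their deviations ran from −0.10 to 0.32 over 13 pairs, with a median of 0.07. Over the 52 other pairs they ran from −0.28 to 0.27, with a median of −0.01. Of 14 libraries, 9 were closest to a library of their own number. The replicate block changed no member's call at an FDR of 0.01. It gave no call for the MFN2 isoforms either, whose FDR became 0.0304 in MII and 0.0483 in 'damaged' oocytes. With the block, 0 genes differed between 'damaged' and MII at that FDR and 353 had an unadjusted p under 0.05. The smallest FDR in that comparison was 0.0237 with the block and 0.999979 without it. FIS1 and MFN2 rest on few reads in cultured oocytes, as do SPG7, MIEF2, MUL1 and SNPH of the lists, and MIEF1 was not analysed here. SPG7, MIEF2 and MUL1 passed the filter on low counts through GV, so only a fall could be called for them.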
